A study of Mus musculus with 18 samples.

Results

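ERVB4 is the name of a group of mouse endogenous retroviruses of the betaretrovirus-like ERVK class. The RNA of its members was followed here in embryonic stem cells (ESCs), neuronal progenitor cells (NPCs) and bone-marrow-derived macrophages, with and without inhibition of the chaperone HSP90. Members are every row of the authors' deposited tables whose repeat name begins with ERVB4_. This gave 9 of 1365 rows in each table, 4 internal parts (marked I) and 5 long terminal repeats (LTRs), all of class LTR/ERVK. The rule reads names only, but the group was selected on the fold changes and adjusted p of these tables, which were known when it was put forward. These values, and the differences computed from them, are therefore a description of the rows and support nothing beyond it. A row sums the reads of all genomic copies of a repeat. The names fall into subgroups 1, 1B, 2 and 3, each with an internal part and an LTR, and 1C, which has an LTR row only.

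The study comprised 18 poly(A) RNA-seq libraries in 6 groups of 3. Treated ESCs received NVP-AUY922, an HSP90 inhibitor, at 100 nM for 24 h, and were set against untreated ESCs. Both kept the 129S1/CASTEiJ background and 2i medium. Treated NPCs received 50 nM for 24 h and were set against untreated NPCs of the same 129S1/CASTEiJ background, in N2B27 medium with EGF and FGF. Treated macrophages received 500 nM for 24 h and were set against untreated macrophages, both derived with M-CSF from bone marrow of the BALBC/C57BL6 background. Cell type, dose and, for macrophages, strain background therefore changed together and cannot be told apart. Whether replicates came from separate cultures or animals is stated nowhere in the labels. The p-values thus reflect only the spread among these libraries, possibly a technical one. Cell type markers were not checked, since the values used here are of repeats only.

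Each table is a DESeq2 comparison of the 6 libraries of a cell type. It gives, per row, the base mean (the mean over the libraries of reads divided by size factors), the log2 fold change with its standard error (SE, written after ±) and an adjusted p. Values per library were not analysed here. Which group stands in the numerator of the fold change is not stated in the tables, nor whether it is the same group in each. The text therefore says on which side of the contrast, positive or negative, a row lay, without linking a side to treated cells. A row was called at an adjusted p under 0.05. In bulk RNA, fewer cells of a type and less RNA per cell cannot be told apart.

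An endogenous retrovirus is the descendant of a virus that entered the germ line. An intact copy holds an internal part, with the genes for the viral structural proteins and enzymes, between a pair of LTRs that are identical when the element integrates. The upstream LTR carries the promoter and enhancers from which the element is transcribed, and the downstream LTR carries the signal for polyadenylation. Recombination between the LTRs leaves solitary LTRs, which can still act as promoters or enhancers of neighbouring genes. ERVK elements are the mouse class that also holds IAP and ETn/MusD elements. In ESCs many of them are kept silent through histone H3 lysine 9 methylation, laid down by the enzyme SETDB1 that the corepressor KAP1 brings to them. HSP90 is a chaperone whose clients include many kinases, receptors and transcription factors.

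ERVB4 rows took a larger share of repeat-derived reads in ESCs than in the other cells. Over all libraries of a table, treated and untreated together, the 9 rows summed to 0.993% of the summed base mean of all rows in ESCs, 0.0685% in NPCs and 0.0355% in macrophages. These shares are of a table's own total, so a scale common to its libraries cancels. The size factor of each library still sets how much that library weighs in them. They carry no error, because the tables hold 1 base mean per row. The rows of subgroups 1B, 1C and 2 each held their largest share in ESCs, and those of subgroups 1 and 3 did not. ERVB4_1-I_MM held 0.00361% in ESCs and 0.0145% in NPCs. ERVB4_3-I_MM held 0.00105% in ESCs, 0.00171% in NPCs and 0.00398% in macrophages. A larger share in ESCs was not particular to ERVB4 rows. It was also seen in the 3 rows given below as most like ERVB4_1C-LTR_Mm. The authors' deposited table has MMETn-int at a base mean of 81651 in ESCs, 920 in NPCs and 1524 in macrophages. It has ETnERV-int at 47472, 790 and 1489, and RLTR13G at 20194, 249 and 390. The summed base mean of all rows was 3.84e+06, 2.08e+06 and 1.99e+06. The processing notes name mm10 as the build, whereas the cells were of the 129S1/CASTEiJ or BALBC/C57BL6 background. The effect of this on the shares was not tested.

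The subgroups behind these shares, again over treated and untreated libraries together, were not the same in the 3 cell types. In ESCs the internal part of subgroup 2, ERVB4_2-I_MM, held 39.5% of the ERVB4 base mean, ERVB4_1C-LTR_Mm 30.1% and ERVB4_2-LTR_MM 22.5%. In NPCs the internal parts ERVB4_1B-I_MM and ERVB4_1-I_MM held 39.6% and 21.2%. In macrophages ERVB4_1C-LTR_Mm held 31.4% and ERVB4_1B-I_MM 26.2%. Thus subgroup 2 made up most of the group's reads in ESCs and a small part in macrophages, where ERVB4_2-I_MM held 6.93% and ERVB4_2-LTR_MM 0.590%. These are shares of reads, not of copies of RNA, since the rows were not divided by length. Rows with unlike fold changes, such as ERVB4_1C-LTR_Mm and ERVB4_2-I_MM in ESCs or ERVB4_1B-I_MM and ERVB4_1-I_MM in NPCs, can stand in another order within the treated or the untreated libraries, and no order within a group is given here.

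**Figure D1:**
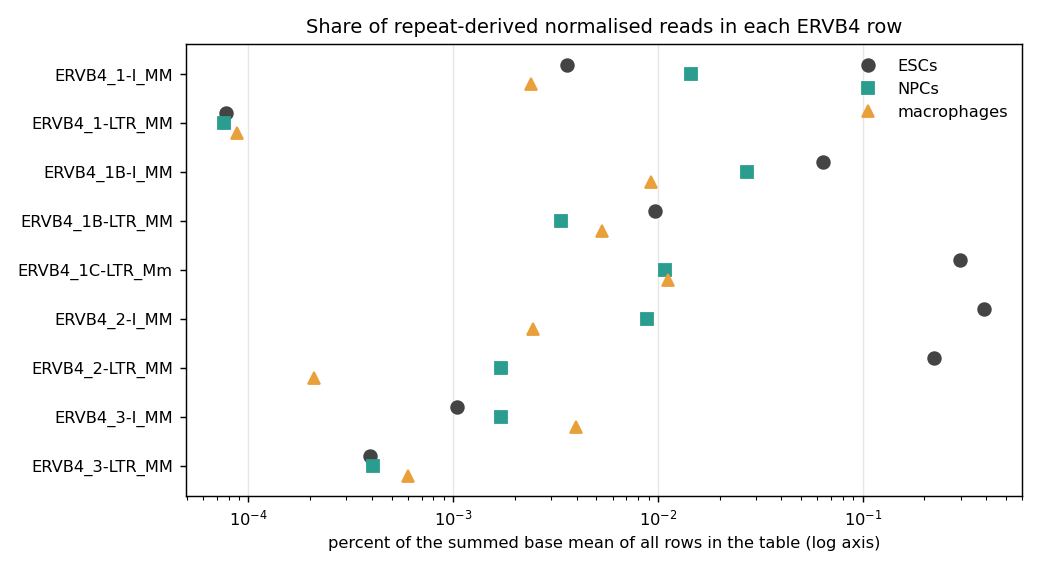
Percent of the summed base mean of all repeat rows (log axis) that each ERVB4 row held in ESCs (circles), NPCs (squares) and macrophages (triangles), 1 value per table and without error. ERVB4_1C-LTR_Mm, ERVB4_2-I_MM and ERVB4_2-LTR_MM stand at 0.299%, 0.392% and 0.223% in ESCs. These lie right of the values of the same rows in both other cell types. The ESC values of ERVB4_1-I_MM, ERVB4_3-I_MM and ERVB4_3-LTR_MM do not lie farthest right.

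The ratio of LTR reads to internal reads of the same subgroup was also unlike between cell types, though the ratios carry no error. The length of a row is the same in each table, and a scale common to a table's libraries cancels in the ratio. The ratio is of base means over both groups, so it still depends on the size factor of each library where LTR and internal part lay apart in the contrast. For subgroup 2 it was 0.569 in ESCs, 0.195 in NPCs and 0.0851 in macrophages, the last on an LTR base mean of only 4.16. For subgroup 1B the order was another, with 0.151 in ESCs, 0.124 in NPCs and 0.574 in macrophages. Subgroup 3 gave 0.376 in ESCs, 0.236 in NPCs and 0.152 in macrophages. Its LTR base means were only 15.1, 8.41 and 12.0, so no shift is read from the order of its ratios. The LTR of subgroup 1, ERVB4_1-LTR_MM, was nearly without reads, and the authors' deposited table has its base mean at 2.996 in ESCs, 1.58 in NPCs and 1.76 in macrophages, so that its ratio is not given. Solitary LTRs and LTRs inside other transcripts add to an LTR row, and their part in these ratios was not tested.

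In the contrast of treated with untreated cells, ERVB4 rows were called in each cell type, and in each they lay on both sides. Of 8 ERVB4 rows tested in ESCs, 1 was positive and 5 were negative in the authors' deposited table, where 10.2% of all 1132 rows tested were positive, 12.0% negative and 22.2% called in all. Of 9 tested in NPCs, 3 were positive and 1 was negative in the authors' deposited table, where 4.96% of all 1249 rows were positive, 6.81% negative and 11.8% called in all. Of 9 tested in macrophages, 2 were positive and 4 negative in the authors' deposited table, where 13.3% of all 1255 rows were positive, 12.5% negative and 25.8% called in all. Called and beyond 1 on the log2 scale were 1 ERVB4 row in ESCs, 1 in NPCs and 2 in macrophages, beside 3.18%, 4.88% and 4.22% of all rows tested. Nothing is read from these counts, for the reason given above. The median log2 fold change over the tested ERVB4 rows was -0.40 in ESCs, 0.24 in NPCs and -0.65 in macrophages, where that of all tested rows was 0.0019, 0.00089 and -0.0129. The row without an adjusted p in ESCs was ERVB4_1-LTR_MM, whose base mean lay under 7.39, the lowest of any row tested in that table.

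**Figure D2:**
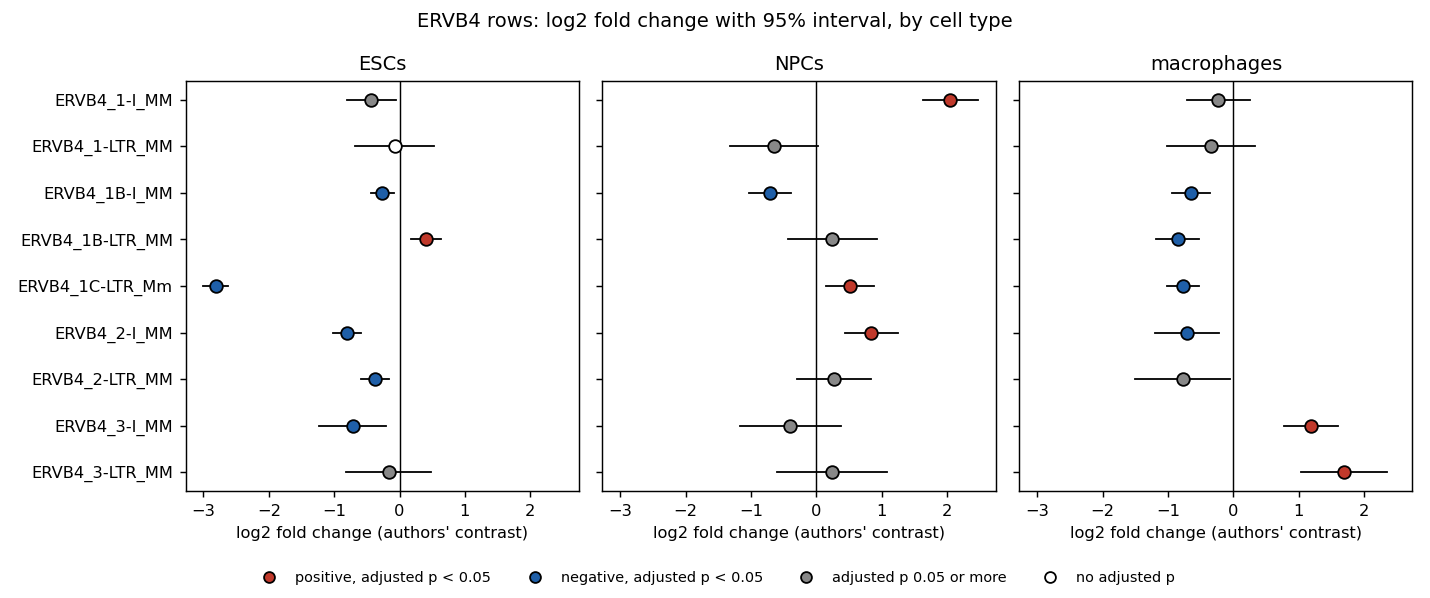
Log2 fold change of the authors' contrast (horizontal) of the 9 ERVB4 rows (vertical) in ESCs, NPCs and macrophages, with 95% intervals from the deposited standard errors. Filled red and blue points passed an adjusted p of 0.05 on the positive and the negative side, grey points did not pass, and the open point had no adjusted p. ERVB4_1C-LTR_Mm at -2.81 in ESCs, ERVB4_1-I_MM at 2.05 in NPCs and ERVB4_3-LTR_MM at 1.69 in macrophages lie farthest from 0.

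ERVB4_1C-LTR_Mm had the largest change of the group, and it was in ESCs. In the authors' deposited table for ESCs it stood at -2.81 ± 0.10 (7.01-fold, base mean 11469, adjusted p = 1.04e-180). This was the third most negative value among the 1132 rows tested. In NPCs it lay on the positive side, where the authors' deposited table has 0.52 ± 0.19 (1.43-fold, base mean 224, adjusted p = 0.0477). The adjusted p became 0.0506 when the adjustment ran over all rows with a p, which ends that call. For macrophages the authors' deposited table has -0.78 ± 0.12 (1.71-fold, base mean 221, adjusted p = 1.07e-08). Its share of the summed base mean was 0.0108% in NPCs and 0.0111% in macrophages, and it lay on opposite sides there.

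The rows most like ERVB4_1C-LTR_Mm over the 3 fold changes belonged largely to the ETn/MusD group of early transposons. Likeness was the Euclidean distance over the 3 log2 fold changes, among 1121 rows tested in every table. For each ERVB4 row, 3 rows were taken. The distance takes no account of standard errors, so rows with few reads can lie close merely within their error. Nearest to ERVB4_1C-LTR_Mm were MMETn-int, an internal part of ETn elements, at a distance of 0.28, and RLTR13G, an ERVK LTR, at 0.37. ETnERV-int, an internal part of ETn-related ERVK elements, followed at 0.43. The authors' deposited table for ESCs puts MMETn-int at -2.93 ± 0.10, RLTR13G at -2.76 ± 0.10 and ETnERV-int at -2.95 ± 0.10. That for macrophages, also the authors' deposited table, puts MMETn-int at -0.64 ± 0.09, RLTR13G at -0.49 ± 0.12 and ETnERV-int at -0.45 ± 0.10. None of the 3 passed in NPCs, where the authors' deposited table puts MMETn-int at 0.30 ± 0.31 (adjusted p = 0.673), RLTR13G at 0.29 ± 0.21 (adjusted p = 0.548) and ETnERV-int at 0.27 ± 0.20 (adjusted p = 0.544). Reads that fit both an ERVB4_1C LTR and an LTR or internal part of another row can enter either. How such reads were assigned is stated in no source used here, and their part in the likeness was not tested.

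**Figure D3:**
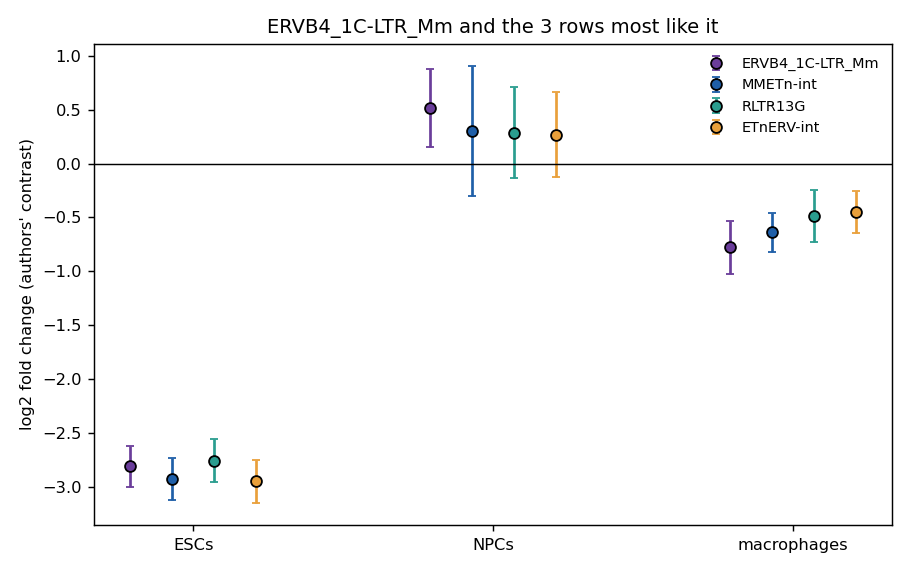
Log2 fold change of the authors' contrast (vertical) of ERVB4_1C-LTR_Mm and the 3 rows with the smallest distance to it, in ESCs, NPCs and macrophages, with 95% intervals from the deposited standard errors. The 4 rows lie between -2.95 and -2.76 in ESCs, between 0.27 and 0.52 in NPCs and between -0.78 and -0.45 in macrophages.

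The internal part of subgroup 2 lay on the negative side in ESCs and macrophages and on the positive side in NPCs. This row, ERVB4_2-I_MM, had the highest base mean of the ERVB4 rows in ESCs, over both groups together, where the authors' deposited table has -0.80 ± 0.11 (1.74-fold, base mean 15067, adjusted p = 1.28e-11). For NPCs the authors' deposited table has 0.84 ± 0.21 (1.79-fold, base mean 183, adjusted p = 0.00133). The authors' deposited table for macrophages puts it at -0.71 ± 0.25 (1.64-fold, base mean 48.9, adjusted p = 0.0214). The 3 folds were thus close to each other in size, and the row was not on the same side throughout. The LTR of the subgroup, ERVB4_2-LTR_MM, was called in ESCs, where the authors' deposited table has -0.37 ± 0.11 (1.29-fold, base mean 8575, adjusted p = 0.0053). It passed neither in NPCs, where the authors' deposited table has 0.27 ± 0.29 (base mean 35.8, adjusted p = 0.683), nor in macrophages, where it has -0.78 ± 0.37 (base mean 4.16, adjusted p = 0.114). With standard errors this wide, a difference of the size called in ESCs was not detectable in either. Rows most like ERVB4_2-I_MM were the ERVK LTRs RMER16A3 and RLTR9D and the DNA transposon MamTip1, at distances of 0.34, 0.41 and 0.39. Those most like ERVB4_2-LTR_MM were the ERVK row RLTR50B, the MaLR row ORR1A1-int and the DNA transposon Arthur1, at 0.24, 0.29 and 0.29.

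Subgroup 1B was the only subgroup whose internal part and LTR were called on opposite sides of a table. Both parts of a subgroup were called, however, only for 1B and 2 in ESCs and for 1B and 3 in macrophages. In ESCs the internal part ERVB4_1B-I_MM had -0.26 ± 0.09 in the authors' deposited table (1.20-fold, base mean 2456, adjusted p = 0.0171). Its LTR, ERVB4_1B-LTR_MM, had 0.40 ± 0.12 in the authors' deposited table (1.32-fold, base mean 371, adjusted p = 0.00488). Both changes were small beside that of ERVB4_1C-LTR_Mm. In macrophages both lay on the negative side, where the authors' deposited table has -0.65 ± 0.15 for the internal part (1.57-fold, adjusted p = 1.00e-04) and -0.85 ± 0.17 for the LTR (1.81-fold, adjusted p = 5.81e-06). The internal part was the only ERVB4 row on the negative side of the NPC table that passed, and the authors' deposited table has it at -0.71 ± 0.17 (1.64-fold, base mean 564, adjusted p = 5.28e-04). The LTR did not pass in NPCs, where the authors' deposited table has 0.24 ± 0.35 (base mean 70.0, adjusted p = 0.79). Its 95% interval of -0.44 to 0.92 held both the value in ESCs and 0. Rows most like the internal part were the LINE rows L2-2_Mam and X9_LINE and the ERVK internal part ERVB3_1-I_MM, at distances of 0.17, 0.20 and 0.20. Those most like the LTR were the LINE row L1M3a, the DNA row hAT-N1a_Mam and the IAP row IAPEY4_I-int, at 0.12, 0.17 and 0.23. Close rows were plentiful here, with 33 of the 1121 rows within 0.5 of the internal part and 19 within 0.5 of the LTR, against 3 for ERVB4_1C-LTR_Mm. Of the ERVB4 rows, only ERVB4_1B-I_MM was called on the same side of all 3 tables as deposited.

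The internal part of subgroup 1 was called in NPCs and in neither other cell type. In the authors' deposited table for NPCs this row, ERVB4_1-I_MM, stood at 2.05 ± 0.21 (4.14-fold, base mean 303, adjusted p = 8.66e-20). It was the seventh most positive of the 1249 rows tested there. The authors' deposited table has the row at -0.43 ± 0.19 in ESCs (base mean 139, adjusted p = 0.0995) and at -0.23 ± 0.25 in macrophages (base mean 47.8, adjusted p = 0.575). ERVB4_1-LTR_MM was tested in NPCs and macrophages only. It passed in neither, and the authors' deposited table has it at -0.66 ± 0.34 in NPCs (adjusted p = 0.263) and at -0.34 ± 0.34 in macrophages (adjusted p = 0.536). A change in the LTR like that of the internal part in NPCs was thus not seen, on very few reads. The rows most like ERVB4_1-I_MM were the IAP LTR IAPLTR4 at a distance of 0.35, the DNA transposon MamTip2b at 0.36 and the ERVK row RLTR20B5_MM at 0.68. The authors' deposited table for NPCs has IAPLTR4 at 1.76 ± 0.33, MamTip2b at 2.14 ± 0.25 and RLTR20B5_MM at 1.87 ± 0.22.

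Subgroup 3 stood apart from the other ERVB4 rows in macrophages. There the authors' deposited table has the internal part ERVB4_3-I_MM at 1.18 ± 0.21 (2.27-fold, base mean 79.1, adjusted p = 4.03e-07). It has the LTR, ERVB4_3-LTR_MM, at 1.69 ± 0.33 (3.23-fold, base mean 12.0, adjusted p = 5.06e-06), also in the authors' deposited table. The LTR had the third most positive value among the 1255 rows tested, on few reads. Both parts of the subgroup thus lay on the positive side, where no other ERVB4 row was called in macrophages. In ESCs the internal part lay on the negative side, and the authors' deposited table has -0.71 ± 0.26 (1.64-fold, base mean 40.1, adjusted p = 0.0324). The LTR did not pass in ESCs, where the authors' deposited table has -0.16 ± 0.33 (adjusted p = 0.808). Neither row passed in NPCs, where the authors' deposited table has -0.40 ± 0.39 for the internal part (adjusted p = 0.666) and 0.24 ± 0.43 for the LTR (adjusted p = 0.846). Rows most like the internal part were RLTR1E_MM, an ERV1 row, and the DNA rows MER135 and Eutr11, at distances of 0.24, 0.25 and 0.51. Those most like the LTR were the ERVL rows LTR101_Mam and MER70A and the ERVK row MERVK26-int, at 0.45, 0.55 and 0.47.

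**Figure D4:**
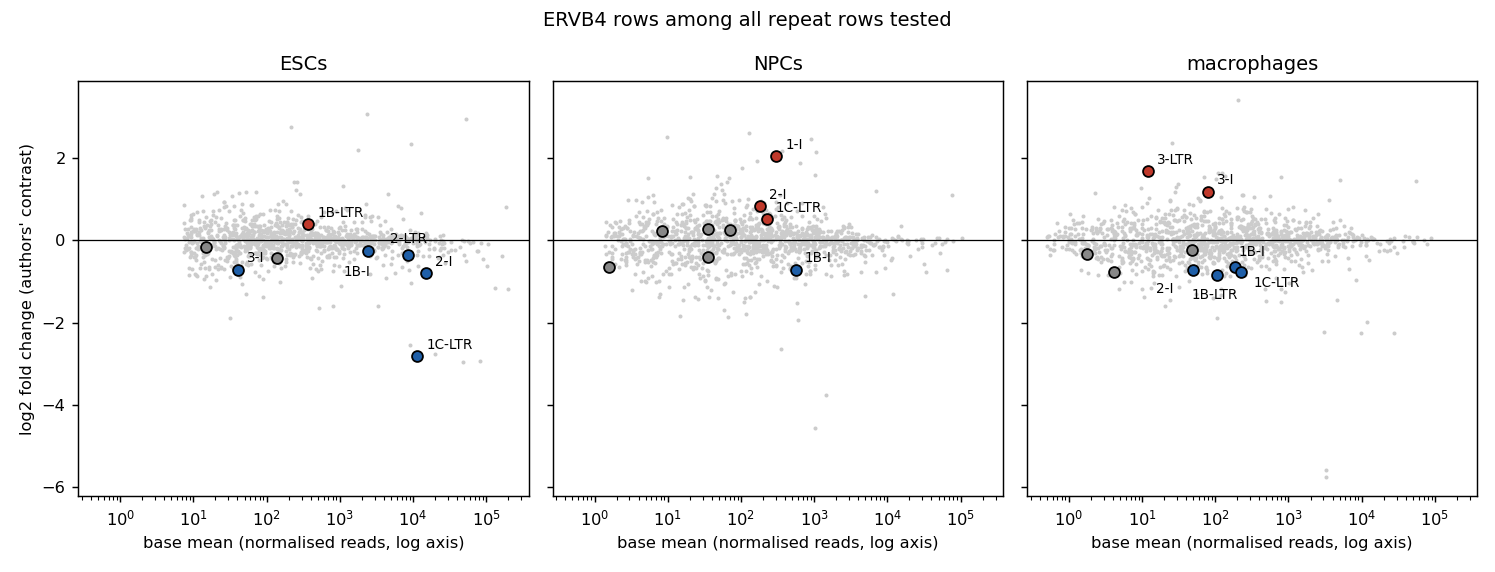
Log2 fold change of the authors' contrast (vertical) against base mean in normalised reads (log axis) for all rows tested (light grey) in ESCs, NPCs and macrophages, with ERVB4 rows as large points coloured red (positive) or blue (negative) where the adjusted p was under 0.05 and dark grey where it was not. Names are printed beside the called rows without ERVB4_ and _MM. ERVB4_1C-LTR_Mm, at a base mean of 11469, lies below nearly all rows of the ESC panel, and ERVB4_3-LTR_MM, at a base mean of 12.0, above nearly all of the macrophage panel.

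Which rows lay on the same side can be set against each other within a table without knowing which group is the numerator. ERVB4_1C-LTR_Mm and ERVB4_2-I_MM were called on the same side as each other in all 3 tables, for ERVB4_1C-LTR_Mm in NPCs at the adjusted p of 0.0477 given above. ERVB4_1-I_MM joined them in NPCs. Both shared that side with ERVB4_1B-I_MM in ESCs and macrophages, and lay opposite to it in NPCs. ERVB4_3-I_MM shared the side of ERVB4_1C-LTR_Mm, ERVB4_2-I_MM and ERVB4_1B-I_MM in ESCs, and lay opposite to all of them in macrophages. ERVB4_1B-LTR_MM lay opposite to these rows in ESCs and on the side of ERVB4_1C-LTR_Mm, ERVB4_2-I_MM and ERVB4_1B-I_MM in macrophages. Of the 15 pairs of called rows in ESCs, 10 shared a side and 5 did not. Of the pairs of called rows in macrophages, 7 shared a side and 8 did not, and in NPCs 3 did and 3 did not. In each of the 3 cell types the called ERVB4 rows thus lay on both sides.

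The log2 fold change itself differed between cell types for rows of every subgroup, as the tables were deposited. The log2 fold change of a row in the second table was taken from that in the first, and the SE of this difference came from both deposited SEs, since no library enters 2 tables. Its two-sided p is from the normal distribution and was adjusted by Benjamini-Hochberg over every row tested in both. The test takes the tables as oriented alike. In ESCs minus NPCs, 3 of 8 ERVB4 rows differed, beside 12.6% of all 1126 rows. In ESCs minus macrophages, 4 of 8 differed, beside 23.7% of all 1124 rows. In NPCs minus macrophages, 5 of 9 differed, beside 12.4% of all 1222 rows. With the sign of the second table turned, 3, 5 and 3 ERVB4 rows differed in these pairs, beside 16.2%, 27.9% and 19.9% of all rows. Nothing is read from these counts, since the ERVB4 group was selected on the fold changes that enter the differences.

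ERVB4_1C-LTR_Mm differed in all 3 pairs of cell types. Its difference was -3.33 ± 0.21 in ESCs minus NPCs (adjusted p = 1.31e-53), -2.03 ± 0.16 in ESCs minus macrophages (adjusted p = 8.90e-36) and 1.29 ± 0.22 in NPCs minus macrophages (adjusted p = 5.03e-07). With the sign of the second table turned, the first 2 of these still passed on the same side, at -2.29 and -3.59, and the last did not, with an adjusted p of 0.492. The ESC value of this LTR thus lay beyond the values in both other cell types whichever way those tables are oriented.

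ERVB4_1-I_MM differed by -2.48 ± 0.29 in ESCs minus NPCs (adjusted p = 9.16e-16) and by 2.28 ± 0.33 in NPCs minus macrophages (adjusted p = 4.04e-10). With the sign of the second table turned, the difference of ESCs and NPCs passed on the other side, at 1.62 (adjusted p = 4.99e-07), and that of NPCs and macrophages on the same side, at 1.82 (adjusted p = 7.46e-07). Between ESCs and macrophages its difference was -0.20, with a 95% interval of -0.82 to 0.42. ERVB4_2-I_MM differed by -1.64 ± 0.24 in ESCs minus NPCs (adjusted p = 2.58e-10) and by 1.55 ± 0.33 in NPCs minus macrophages (adjusted p = 7.41e-05). Neither passed with a sign turned, at adjusted p of 0.941 and 0.863, since its changes were of like size in the 3 tables. Between ESCs and macrophages its difference was -0.09, with an interval of -0.63 to 0.45. For this row the result is thus one of side, and it holds only if the NPC table is oriented like the others.

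The internal part of subgroup 3 differed between macrophages and both other cell types, and its LTR between macrophages and ESCs. ERVB4_3-I_MM differed by -1.90 ± 0.34 in ESCs minus macrophages (adjusted p = 3.64e-07) and by -1.58 ± 0.45 in NPCs minus macrophages (adjusted p = 0.00653). ERVB4_3-LTR_MM differed by -1.85 ± 0.47 in ESCs minus macrophages (adjusted p = 8.33e-04). In NPCs minus macrophages it had -1.45 ± 0.54 and did not pass (adjusted p = 0.0589). With a sign turned the LTR passed on the other side in both pairs, at 1.53 (adjusted p = 0.00661) and 1.93 (adjusted p = 0.00339). The internal part passed in neither, with adjusted p of 0.329 and 0.242. ERVB4_1B-LTR_MM differed by 1.25 ± 0.21 in ESCs minus macrophages (adjusted p = 3.0e-08) and by 1.09 ± 0.39 in NPCs minus macrophages (adjusted p = 0.0408), and neither passed with a sign turned, with adjusted p of 0.0862 and 0.302.

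ERVB4_1B-I_MM did not pass in any pair with the signs left as they are. Its differences were 0.45 in ESCs minus NPCs (adjusted p = 0.109), 0.39 in ESCs minus macrophages (adjusted p = 0.0872) and -0.06 in NPCs minus macrophages (adjusted p = 0.927). Their 95% intervals ran between 0.08 and 0.82, between 0.05 and 0.73, and between -0.50 and 0.38. With a sign turned it passed in all 3 pairs, with adjusted p of 6.58e-06, 1.39e-06 and 3.93e-08. Values on the same side of both tables then add up. ERVB4_2-LTR_MM also passed in none, with differences of -0.64, 0.41 and 1.05 and adjusted p of 0.177, 0.518 and 0.149. The interval of this LTR for NPCs minus macrophages was wide, running between 0.13 and 1.97. With a sign turned, ERVB4_2-LTR_MM and ERVB4_2-I_MM both passed in ESCs minus macrophages, with adjusted p of 0.0153 and 4.75e-07. ERVB4_1-LTR_MM could be compared in NPCs minus macrophages only, with a difference of -0.32 and an interval of -1.27 to 0.63. Between ESCs and NPCs, ERVB4_1B-LTR_MM, ERVB4_3-I_MM and ERVB4_3-LTR_MM did not pass either, with differences of 0.16, -0.31 and -0.40 and adjusted p of 0.877, 0.786 and 0.757.

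**Figure D5:**
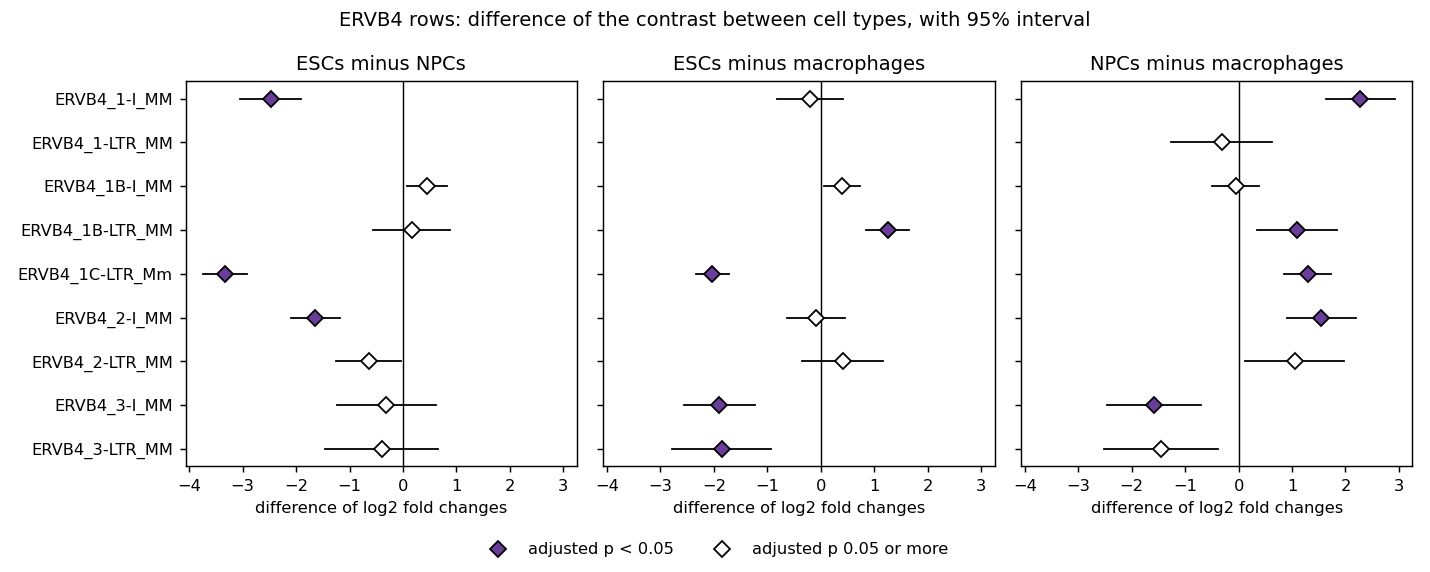
Difference of the log2 fold changes of 2 cell types (horizontal) for each ERVB4 row (vertical) tested in both, with 95% intervals. Filled diamonds passed an adjusted p of 0.05 over all rows. ERVB4_1C-LTR_Mm is filled in all 3 panels, at -3.33, -2.03 and 1.29, and ERVB4_1B-I_MM in none.

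Related ERVK rows are set beside the ERVB4 rows by counts and medians, with no test of the lists. In ESCs the ETn/MusD list had 0 positive and 9 negative rows of 10, with a median of -0.71, against the 1 positive and 5 negative ERVB4 rows and their median of -0.40. Its smallest adjusted p was that of MMETn-int. In NPCs no row of the ETn/MusD list passed, and the list's median was 0.13. Of the ERVB4 rows 4 passed there, beside 11.8% of all rows tested. With DESeq2's unadjusted p, 1 row of the list lay under 0.05. The authors' deposited table for NPCs has ERVB7_2B-LTR_MM as the row of that list with the smallest adjusted p, 0.145. It has that row at 0.51 ± 0.23, beside 0.52 ± 0.19 for ERVB4_1C-LTR_Mm, which passed at an adjusted p of 0.0477. In macrophages the ETn/MusD list had 2 positive and 2 negative rows and a median of 0.05, where the ERVB4 median was -0.65.

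A second list held 14 rows of other betaretrovirus-like names (ERVB2, ERVB3, ERVB5, SRV, MERVK26, MYSERV and MMERVK9). It had 3 positive and 8 negative rows in ESCs, 2 and 4 in NPCs and 2 and 3 in macrophages, with medians of -0.29, -0.11 and -0.01. Its smallest adjusted p were those of MMERVK9C_I-int in ESCs, at -1.03 ± 0.09, ERVB5_1-I_MM in NPCs, at -1.39 ± 0.22, and MERVK26-int in macrophages, at 1.53 ± 0.14, in the authors' deposited table. Over the 274 ERVK rows other than ERVB4, which take in the rows of both lists that are of this class, 41.7% of those tested were called in ESCs, 17.6% in NPCs and 35.8% in macrophages. The rows of smallest adjusted p among them were MMETn-int in ESCs and RNERVK23-int, an ERVK internal part, in NPCs and macrophages. Of the tested ERVB4 rows, 75.0% were called in ESCs, 44.4% in NPCs and 66.7% in macrophages. For the ETn/MusD list these were 90.0%, 0.00% and 40.0%, and for the second list 78.6%, 42.9% and 35.7%. Nothing is read from these percentages, since the ERVB4 group was selected on the same values.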

How the data were processed

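Poly(A) RNA from 18 libraries was sequenced as paired ends from stranded libraries, per the labels' protocols. The submitters' processing notes name build mm10 and the tools TopHat2 2.0.13, Bowtie2, Trim Galore, featureCounts, deepTools and DESeq2, without saying what each did. Per the file headers, the 3 tables are DESeq2 results. Their base mean, a signal, is the authors' mean of reads divided by size factors. The log2 fold change, its standard error (log2), the Wald statistic (a score), the p-value and the adjusted p-value are as the authors deposited them. The statistic equalled the fold change over its standard error, and the adjusted p a Benjamini-Hochberg adjustment, within a relative 1e-06 in every row that carries them. The sources used here do not give how reads of several copies were assigned or whether strand was used. Depth per library was not analysed here.

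The tables hold no values per library, so the count model planned for such values was not used. From the tables, shares of base means, 95% intervals (normal), differences between tables and distances between rows were computed (Python 3.11.15, pandas 2.3.3, NumPy 2.4.6, SciPy 1.17.1, matplotlib 3.10.9). The difference test was run on simulated fold changes with normal errors of the deposited size, which is the error that the test itself assumes. That run therefore checks the computation only. It cannot tell whether the deposited standard errors are right. Rows with a base mean above 0 and under 1 stayed within 0.25 of 0 on the log2 scale in ESCs, 0.37 in NPCs and 0.42 in macrophages, so fold changes of rows with few reads may have been shrunken towards 0. No source used here states it. All 9 ERVB4 rows are named, and for each row tested in all tables the 3 rows nearest in fold change were named; of each comparison list, the row with the lowest adjusted p per table was named. Members and lists were chosen with earlier results of these data known. Alternatives were other thresholds, other sets of rows for the adjustment, centring on the median, a base mean minimum of 50, and a turned sign.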

Additional observations from a re-analysis of the deposited data

Results flagged for a closer look

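The difference of the contrast between cell types passed an adjusted p of 0.05 for the ERVB4 rows that follow, taking the tables as oriented alike. In ESCs minus NPCs these were ERVB4_1C-LTR_Mm at -3.33, ERVB4_1-I_MM at -2.48 and ERVB4_2-I_MM at -1.64. In ESCs minus macrophages they were ERVB4_1C-LTR_Mm at -2.03, ERVB4_3-I_MM at -1.90, ERVB4_3-LTR_MM at -1.85 and ERVB4_1B-LTR_MM at 1.25. In NPCs minus macrophages they were ERVB4_1-I_MM at 2.28, ERVB4_2-I_MM at 1.55, ERVB4_1C-LTR_Mm at 1.29, ERVB4_1B-LTR_MM at 1.09 and ERVB4_3-I_MM at -1.58. Dose, cell type and, for macrophages, strain background differ between the tables, and their parts in these differences cannot be told apart. The differences are a description only, since the ERVB4 group was selected on the fold changes that enter them.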

How the results depend on the processing

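Counts of called ERVB4 rows stayed within 1.5 times of 6 in ESCs, 4 in NPCs and 6 in macrophages under all alternatives but the requirement of an absolute log2 fold change over 1, which left 1, 1 and 2. The rows called still changed. At an adjusted p under 0.01, ERVB4_1B-I_MM and ERVB4_3-I_MM were lost in ESCs, ERVB4_1C-LTR_Mm in NPCs and ERVB4_2-I_MM in macrophages. Under 0.1, ERVB4_1-I_MM was gained in ESCs. A base mean of at least 50 left out ERVB4_3-I_MM in ESCs, and ERVB4_2-I_MM and ERVB4_3-LTR_MM in macrophages. Counts of differing rows changed further than that with a base mean of at least 50 in both tables, where 2 rows remained in ESCs minus macrophages and 2 in NPCs minus macrophages because few ERVB4 rows have so many reads, and with the sign of the second table turned, where NPCs minus macrophages had 3. Turning that sign put 14 of 25 differences on the other side, which happens wherever the log2 fold change in the second table is the larger in size. In ESCs minus NPCs these were ERVB4_1-I_MM (1.62), ERVB4_1B-I_MM (-0.97), ERVB4_2-I_MM (0.040) and ERVB4_3-LTR_MM (0.074). In ESCs minus macrophages they were ERVB4_1B-I_MM (-0.92), ERVB4_1B-LTR_MM (-0.45), ERVB4_2-LTR_MM (-1.14), ERVB4_3-I_MM (0.47) and ERVB4_3-LTR_MM (1.53). In NPCs minus macrophages they were ERVB4_1B-LTR_MM (-0.61), ERVB4_1C-LTR_Mm (-0.26), ERVB4_2-LTR_MM (-0.50), ERVB4_3-I_MM (0.78) and ERVB4_3-LTR_MM (1.93). Centring on the median changed no call. No paired analysis was possible because the tables hold no values per library, and for the same reason no replicate was left out and no other tool or count filter was run.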
